A study of Mus musculus with 16 samples.

Results

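Expression of 8 genes that regulate or mark the hormone-sensing luminal cells of the mammary gland was examined in mouse mammary organoids of 4 genotypes. The 8 genes were Esr1, Pgr, Foxa1, Gata3, Greb1, Tnfsf11, Prom1 and Cited1, chosen by name among 55487 gene identifiers. Each was found by its symbol, and 7 had counts high enough to be tested. Tnfsf11 was the exception. Organoids, which are multicellular structures grown from tissue cells in culture, comprised 3 WT samples, 4 with a PIK3CA mutation, 4 with a HER2 mutation and 5 with both, called double mutants here. The series title gives the alleles as HER2 V777L and PIK3CA H1047R. By the labels, WT organoids came from normal breast and every mutant organoid from tumor breast. A change with mutation and a change with source therefore cannot be told apart in any comparison with WT. How the alleles were introduced, the promoter or Cre behind them, the strain and age of the mice, and whether replicates came from separate animals were not given in the sources used here. The p-values measure the spread between these samples, which may be technical. All organoids were grown with epidermal growth factor, medium conditioned for Rspo1 and Noggin, and B27, a supplement whose known formulation includes progesterone. No added oestrogen is named in the labels.

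The luminal layer of the mammary duct holds hormone-sensing cells, which carry the oestrogen receptor (encoded by Esr1) and the progesterone receptor (encoded by Pgr), and secretory or alveolar cells, which largely lack both. FOXA1 opens chromatin at sites that the oestrogen receptor binds, and GATA3 maintains luminal identity. Pgr and Greb1 are classic target genes of the oestrogen receptor, and GREB1 is also a cofactor of that receptor. Tnfsf11 encodes RANKL, the signal through which progesterone-responsive cells drive their neighbours to divide. Cited1 encodes a transcriptional coactivator found in hormone-sensing cells, and Prom1 encodes CD133, a surface protein used to isolate these cells in the mouse.

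Libraries held 45545182 to 64168308 counts. Erbb2, the mouse gene for HER2, had 2696 to 4632 CPM, the count scaled to a common library size, in HER2 mutants and 1499 to 2751 in double mutants. Erbb2 had 145 to 188 CPM in organoids without the HER2 mutation. Pik3ca had 91.6 to 122 CPM in organoids labelled with a PIK3CA mutation and 61.4 to 85.7 in the others. Marker lists of other cell types also differed between WT and mutant organoids. The summed level of 8 immune genes was 505 to 3010 CPM in WT and 9.78 to 184 CPM in mutants, and the groups did not overlap. Of the immune genes, Adgre1 had no count in 3 and Cd3e in 1 of the 13 mutant libraries. The sum of 6 fibroblast genes was 325 to 1899 CPM in WT and 26.2 to 624 CPM in mutants, with Lum at 0 in 4 and Col3a1 at 0 in 1 mutant library. The sum of 4 endothelial genes was low in every library, at 1.74 to 4.39 CPM in WT and 0.353 to 1.57 CPM in mutants, without overlap. Luminal keratins and epithelial adhesion genes, a list of 8, had a sum of 2238 to 2489 CPM in WT and 2074 to 3821 in HER2 mutants. That sum was 3259 to 4218 CPM in PIK3CA mutants and 3113 to 6521 in double mutants, all above WT. The sum of 8 secretory luminal genes was 3597 to 5491 CPM in WT and 9157 to 14109 in PIK3CA mutants. It was 12442 to 37805 in HER2 mutants and 6102 to 21524 in double mutants. The casein gene Csn3 made up most of it in WT, PIK3CA and double mutants, with means of 4184, 10976 and 13118 CPM. In HER2 mutants the largest means were 12191 CPM for Csn3, 8962 for the casein gene Csn2 and 2358 for Ltf. The basal and myoepithelial sum, over 8 genes, was 260 to 972 CPM in HER2 mutants and 473 to 1375 CPM in the other genotypes.

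**Figure D1:**
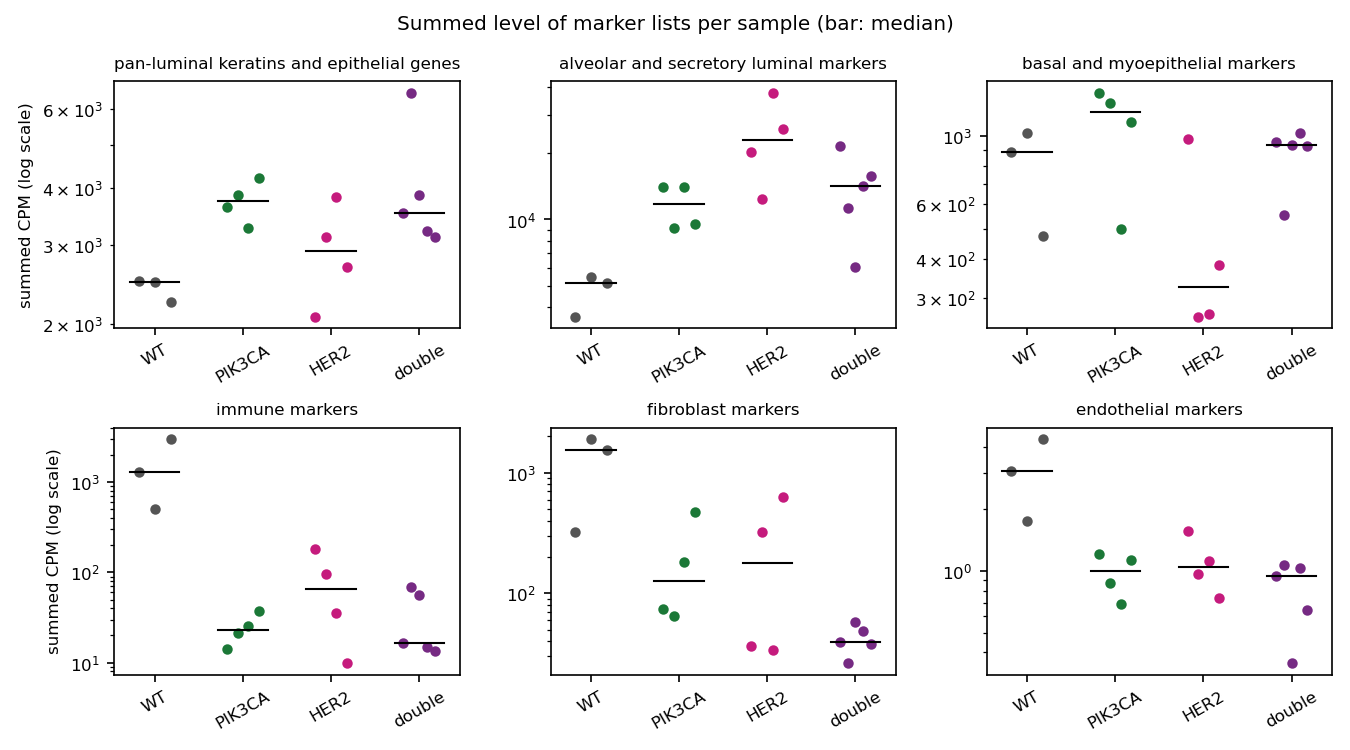
Summed CPM of 6 marker lists in each sample (log axis), by genotype, with the median as a bar. The immune sums of the 3 WT samples, 505 to 3010 CPM, all lie above those of the 13 mutant samples.

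Promoter sequences from RefSeq (GRCm38.p6, the build named mm10 in the submitters' processing notes) were found for 8 of the 8 genes, with 13 start sites in all. The 250 bases before each start were searched on both strands for the oestrogen receptor element core AGGTCA, the full oestrogen element, the progesterone receptor element core TGTTCT, the FOX motif TGTTTAC and the GATA motif AGATAA. These were held by 14.0%, 0.0639%, 16.1%, 3.17% and 9.99% of 32851 mouse promoters of the same length. Of the 13 windows searched, 6 held no annotated exon base of their gene, and the others overlapped its exons. A match was present before 4 of the 13 starts. Greb1 and Foxa1 are shown because they had the largest called differences among the receptor targets and the receptor's partner factors. Capitals mark the oestrogen element core in Greb1, read on the opposite strand at bases -88 to -83 from the start, and the FOX motif in Foxa1, also on the opposite strand, at bases -141 to -135. The Greb1 window is chr12:16800917-16801036 and the Foxa1 window is chr12:57546192-57546311, both on the minus strand, written 5′ to 3′ along the gene, and neither holds an annotated exon base of its gene.
Greb1: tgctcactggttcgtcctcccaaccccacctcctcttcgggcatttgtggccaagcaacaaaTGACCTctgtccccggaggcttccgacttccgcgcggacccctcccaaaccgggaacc
Foxa1: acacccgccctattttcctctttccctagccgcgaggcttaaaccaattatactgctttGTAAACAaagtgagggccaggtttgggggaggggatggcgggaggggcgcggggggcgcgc
The other matches were a progesterone element core before the second Prom1 start, at bases -21 to -16, and an oestrogen element core before the third Cited1 start, at bases -217 to -212. The Foxa1 window and these Prom1 and Cited1 windows lie within the annotated bounds of their genes. The Cited1 window holds 170 exon bases. A match describes the letters in these windows and is no measure of receptor binding.

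Each gene was compared between genotypes with edgeR's quasi-likelihood test in a single fit of all 16 samples. A difference is called higher or lower here at a Benjamini-Hochberg adjusted p under 0.05 over 24252 genes. Of the 42 tests between pairs of genotypes, 7 passed, and they fell on 4 genes: Esr1, Foxa1, Greb1 and Cited1. Pgr, Gata3 and Prom1 passed in none. Against WT, PIK3CA mutants had 0 of 7 genes higher and 1 lower, where 1.49% and 3.03% of all tested genes were called. HER2 mutants against WT had 0 higher and 1 lower, beside 4.75% and 5.63% of all genes. Double mutants against WT had 1 higher and 2 lower, beside 5.03% and 6.72%. Among the mutants, double against HER2 gave 1 higher and 0 lower, beside 1.03% and 1.47%. HER2 against PIK3CA mutants gave 0 higher and 1 lower, beside 2.21% and 2.20%. Double against PIK3CA mutants gave 0 in either direction, beside 0.309% and 0.363%, with 1 gene at an unadjusted p under 0.05 and 0 called by DESeq2. Double mutants against WT were the comparison with more than 1 call.

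The genes did not move as a block. Their median log2 difference from WT was 0.25 in PIK3CA, -0.63 in HER2 and 0.10 in double mutants, beside -0.03, 0.03 and 0.01 over all tested genes. It was -0.81 in HER2 against PIK3CA mutants and 0.23 in double against HER2 mutants, beside 0.07 and -0.02 over all genes. In double mutants against WT the 7 values ran from -4.78 for Greb1 to 2.71 for Cited1. The 3 comparisons with WT share the same WT samples.

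**Figure D2:**
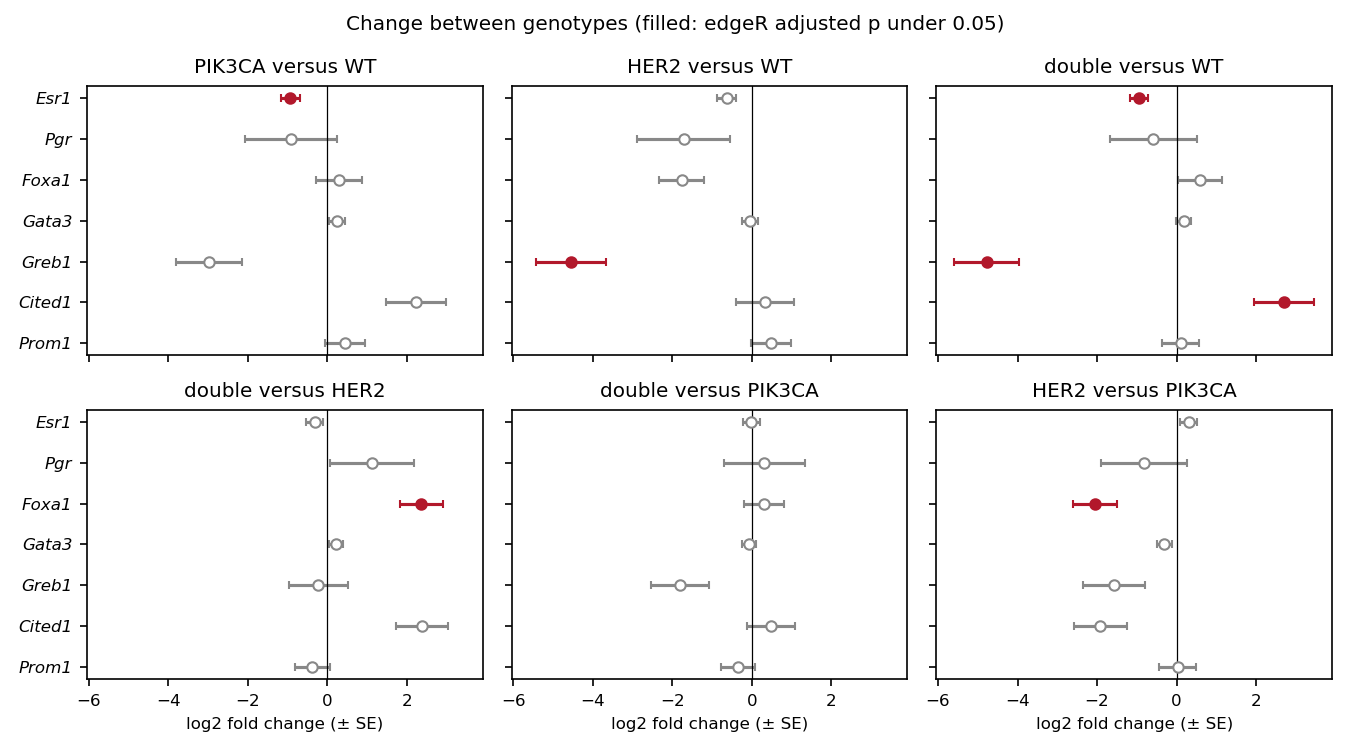
Log2 fold change (horizontal axis, with its SE) of the 7 tested genes in each of the 6 comparisons between genotypes. Filled points passed the edgeR adjusted p threshold of 0.05; Greb1 lies farthest to the left in each comparison with WT.

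The oestrogen receptor gene Esr1 (ENSMUSG00000019768, chromosome 10, 4611593 to 5005614, plus strand, GRCm38) was lower than WT in PIK3CA mutants and in double mutants. Esr1 had 31.9, 44.0 and 29.6 CPM in WT replicates 1 to 3. In PIK3CA mutants Esr1 had 18.7, 19.0, 19.8 and 16.1 CPM. HER2 mutants had 23.3, 25.5, 22.9 and 18.9 CPM of Esr1. Double mutants had 15.99, 9.80, 22.7, 18.03 and 24.2 CPM. Each of the 3 WT samples was above each of the 13 mutant samples, and the mutant genotypes overlapped one another in part. PIK3CA mutants differed from WT by a log2 fold change of -0.93 in Esr1 (SE 0.239, edgeR adjusted p 0.0349). Double mutants differed by -0.95 (SE 0.226, edgeR adjusted p 0.0119). HER2 mutants differed by -0.63, which did not pass (SE 0.239, edgeR adjusted p 0.105). WT replicate 2 held the highest Esr1 level of all samples. The PIK3CA call was lost in each of the 7 fits that left out a sample of these genotypes, with edgeR adjusted p between 0.0674 and 0.149. The double mutant call was lost without WT replicate 2 (-0.76, edgeR adjusted p 0.0703) and in a fit of WT and double mutants alone (-0.94, edgeR adjusted p 0.0514). In bulk RNA such as this, fewer cells of a type and less RNA per cell cannot be told apart. The immune sum above was also higher in each WT sample than in each mutant sample. The same held for the endothelial sum, at low levels. The fibroblast sum overlapped, at 325 CPM in WT replicate 1 against 471 in PIK3CA replicate 4 and 624 in HER2 replicate 4. Of the fibroblast genes, Pdgfra alone did not overlap, at 93.6 to 134 CPM in WT and 3.81 to 63.3 CPM in mutants. The secretory luminal sum was lower in each WT sample (3597 to 5491 CPM) than in each mutant sample (6102 to 37805 CPM). The luminal keratin and epithelial sum was lower in WT than in each PIK3CA and double mutant sample, and overlapped in HER2 mutants. The part of any of these shifts in the Esr1 difference was not tested.

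Pgr (ENSMUSG00000031870, chromosome 9, 8899833 to 8968611, plus strand), the progesterone receptor gene, varied widely between replicates of the HER2 and double mutants. Pgr had 29.8, 40.5 and 30.1 CPM in WT. It had 16.3, 23.7, 11.9 and 19.7 CPM in PIK3CA mutants, all below WT. In HER2 mutants Pgr had 0.396, 33.8, 0.690 and 5.73 CPM, so that replicate 2 lay at the WT level and replicates 1 and 3 were close to absent. In double mutants Pgr had 14.2, 0.273, 42.6, 20.4 and 33.7 CPM. The highest sample was 85.5 times the lowest in HER2 mutants and 156 times in double mutants, but 1.36 times in WT and 1.99 times in PIK3CA mutants. The log2 differences from WT were -0.90, -1.72 and -0.59 for PIK3CA, HER2 and double mutants, with SE of 1.16, 1.17 and 1.10. None passed, with edgeR adjusted p of 0.765, 0.382 and 0.778. Without HER2 replicate 2 the HER2 value was -3.88 and passed (edgeR adjusted p 0.0426). In a fit of WT and PIK3CA mutants alone, where the HER2 and double mutants no longer set the spread, the PIK3CA value of -0.90 passed (edgeR adjusted p 0.0245).

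Foxa1 (ENSMUSG00000035451, chromosome 12, 57540628 to 57546916, minus strand), the pioneer factor gene, was lowest in HER2 mutants. Foxa1 had 28.8, 55.3 and 26.3 CPM in WT and 56.3, 60.01, 27.5 and 36.3 CPM in PIK3CA mutants. In HER2 mutants it had 20.1, 11.3, 3.98 and 7.80 CPM, and each of these was below each WT and PIK3CA sample. In double mutants Foxa1 had 50.4, 10.1, 62.1, 76.0 and 80.0 CPM. Replicate 2 of the double mutants thus lay within the HER2 range, while the other 4 lay above every HER2 sample. Double mutants had more Foxa1 than HER2 mutants, with a log2 fold change of 2.37 (SE 0.538, edgeR adjusted p 0.0322). Without double mutant replicate 2 that value was 2.63 (edgeR adjusted p 0.00764). Foxa1 was lower in HER2 than in PIK3CA mutants, with a log2 fold change of -2.06 (SE 0.547, edgeR adjusted p 0.0450). HER2 mutants differed from WT by -1.77, which did not pass (SE 0.570, edgeR adjusted p 0.0603).

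The Foxa1 call between double and HER2 mutants was lost in 5 of 9 fits without a sample, those without HER2 replicates 2 or 4 or double mutant replicates 1, 4 or 5 (edgeR adjusted p 0.0562 to 0.0735). The call between HER2 and PIK3CA mutants was lost in 7 of 8, all but that without HER2 replicate 1 (edgeR adjusted p 0.0625 to 0.116 in the others). In fits of the compared genotypes alone, Foxa1 gave 2.37 (edgeR adjusted p 0.152) for double against HER2 and -2.06 (edgeR adjusted p 0.0591) for HER2 against PIK3CA mutants. HER2 mutants also had the highest median secretory sum, 23047 CPM against 11754 in PIK3CA mutants. In these genotypes Csn2 had means of 8962 against 0.230 CPM. Csn3, Wap, Lalba and Ltf also had higher means in HER2 mutants, and Elf5 was about level. Aldh1a3 and Kit went the other way, with means of 27.0 against 76.8 and 176 against 256 CPM. The lowest median basal sum was also that of HER2 mutants, 324 CPM against 1190 in PIK3CA mutants. HER2 replicate 1, with the most Foxa1 of its genotype, had a basal sum of 972 CPM, within the PIK3CA range of 502 to 1375 CPM. Of the 8 basal genes, 4 were called lower in HER2 than in PIK3CA mutants, beside 2.20% of all tested genes. The part of these shifts in the Foxa1 difference was not tested.

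Gata3 (ENSMUSG00000015619, chromosome 2, 9857078 to 9890034, minus strand), the luminal identity factor gene, changed little between genotypes. Gata3 had 408, 347 and 369 CPM in WT and 461, 395, 444 and 485 CPM in PIK3CA mutants. HER2 mutants had 467, 221, 372 and 381 CPM of Gata3. Double mutants had 334, 386, 477, 438 and 479 CPM. All genotypes overlapped WT, and the lowest value was HER2 replicate 2, the same sample that held the highest Pgr level of its genotype. The largest of the 6 pairwise log2 fold changes in size was -0.31, for HER2 against PIK3CA mutants (SE 0.185, edgeR adjusted p 0.391). Against WT the values were 0.25, -0.06 and 0.17 in PIK3CA, HER2 and double mutants, with SE of 0.201, 0.1998 and 0.192. Gata3 overlaps 3 annotated genes, 2 of them protein-coding, and the strandedness of counting was not given in the sources used here, so reads of these genes may be shared.

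**Figure D3:**
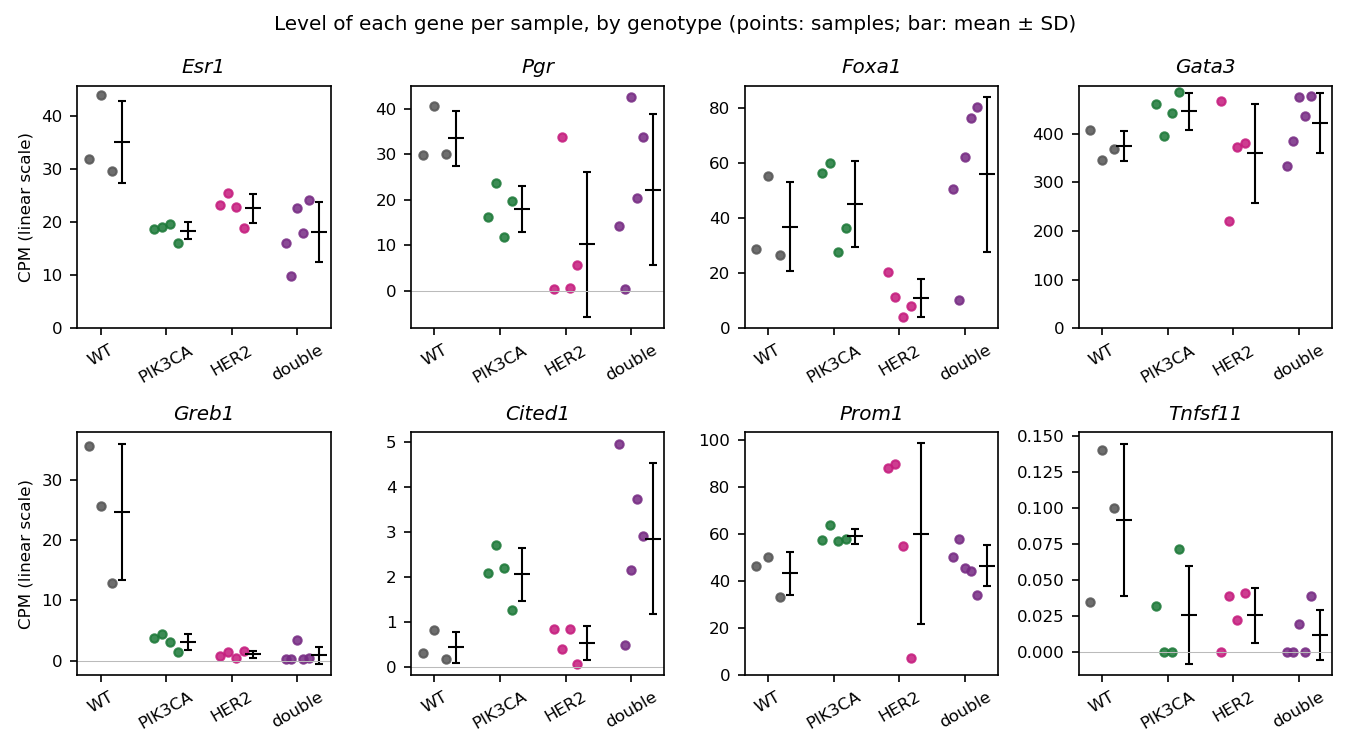
CPM of each of the 8 genes in every sample (linear axes, 1 panel a gene), by genotype, with the mean and SD beside the points. Greb1 is highest in the 3 WT samples, Foxa1 is low in the 4 HER2 mutants, and Pgr is split within HER2 and double mutants.

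Greb1 (ENSMUSG00000036523, chromosome 12, 16670615 to 16800886, minus strand), the oestrogen-induced cofactor gene, had the largest difference of the 7 genes. Greb1 had 35.5, 25.6 and 13.0 CPM in WT. It had 3.69, 4.44, 3.06 and 1.39 CPM in PIK3CA mutants and 0.736, 1.37, 0.423 and 1.68 CPM in HER2 mutants. In double mutants Greb1 had 0.266, 0.231, 3.38, 0.259 and 0.369 CPM. The lowest WT sample was thus above the highest mutant sample, and 4 of the 5 double mutants were below every sample of the other genotypes. Replicate 3 of the double mutants instead lay within the PIK3CA range. HER2 mutants differed from WT by a log2 fold change of -4.55 in Greb1 (SE 0.882, edgeR adjusted p 0.00529). Double mutants differed by -4.78 (SE 0.814, edgeR adjusted p 0.00140), and by -6.44 without their replicate 3 (edgeR adjusted p 2.88e-05). Both calls held in each alternative run, including every fit without a sample. In PIK3CA mutants the value was -2.97, just beyond the threshold (SE 0.824, edgeR adjusted p 0.0521).

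Between mutants, Greb1 differed by -1.80 in double against PIK3CA (SE 0.727, edgeR adjusted p 0.313) and by -0.23 in double against HER2 mutants (SE 0.737, edgeR adjusted p 0.917). Without double mutant replicate 3 these became -3.47 (edgeR adjusted p 0.00533) and -1.90 (edgeR adjusted p 0.0473). WT replicates 1, 2 and 3 had fibroblast sums of 325, 1899 and 1557 CPM and immune sums of 1303, 505 and 3010 CPM, beside 35.5, 25.6 and 13.0 CPM of Greb1. The part of these markers in the difference between WT and mutants was not tested. Greb1 overlaps an antisense gene, Gm48140, and a miRNA gene, Gm44305, and shared reads cannot be told apart without strand.

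Cited1 (ENSMUSG00000051159, X chromosome, 102247381 to 102252181, minus strand), the coactivator gene, moved in the opposite direction to Greb1 in double mutants, at low levels. Cited1 had 0.315, 0.820 and 0.184 CPM in WT, from 11 to 41 counts. It had 2.08, 2.71, 2.19 and 1.27 CPM in PIK3CA mutants, all above WT. In HER2 mutants it had 0.849, 0.405, 0.846 and 0.0819 CPM. Replicate 2 lay within the WT range, replicates 1 and 3 were above it by a small margin, and replicate 4, with 4 counts, was below it. In double mutants it had 4.96, 0.503, 2.16, 3.73 and 2.92 CPM, so that 4 of 5 samples were above every WT sample and replicate 2 was not. Cited1 was higher in double mutants than in WT, with a log2 fold change of 2.71 (SE 0.750, edgeR adjusted p 0.0278). It no longer passed without WT replicate 1 (2.52, edgeR adjusted p 0.123) or WT replicate 3 (2.33, edgeR adjusted p 0.147), and was 3.51 (edgeR adjusted p 0.0241) without WT replicate 2. Both organoid genotypes that carry the PIK3CA mutation had a higher mean, 2.06 ± 0.595 CPM (SD, n = 4) and 2.86 ± 1.68 CPM (SD, n = 5), than the HER2 mutants at 0.545 ± 0.373 CPM (SD, n = 4). The other pairwise differences of Cited1 did not pass. Of these, 3 were called by DESeq2 but not by edgeR. They were 2.24 for PIK3CA mutants against WT, 2.39 for double against HER2 and -1.91 for HER2 against PIK3CA mutants, with SE of 0.753, 0.656 and 0.667 and edgeR adjusted p of 0.117, 0.0627 and 0.117. DESeq2 gave them adjusted p of 0.0236, 0.00356 and 0.0373. HER2 mutants differed from WT by 0.32 (SE 0.732, edgeR adjusted p 0.826) and double from PIK3CA mutants by 0.47 (SE 0.601, edgeR adjusted p 0.82899).

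Prom1 (ENSMUSG00000029086, chromosome 5, 43993620 to 44102032, minus strand), the CD133 gene, was tight in PIK3CA mutants and wide in HER2 mutants. Prom1 had 46.3, 50.2 and 32.98 CPM in WT and 57.2, 63.9, 56.8 and 57.8 CPM in PIK3CA mutants. HER2 mutants had 88.1, 89.6, 55.0 and 7.27 CPM of Prom1. Double mutants had 50.1, 57.9, 45.5, 44.0 and 34.1 CPM. All 4 PIK3CA samples were above WT, and HER2 mutants held both the highest and the lowest values of all samples. No difference passed, with log2 fold changes against WT of 0.45 in PIK3CA (SE 0.498), 0.48 in HER2 (SE 0.498) and 0.10 in double mutants (SE 0.473), and edgeR adjusted p between 0.589 and 0.917. HER2 replicate 4 decided the HER2 values. Without it Prom1 was higher in HER2 mutants than in WT (0.85, edgeR adjusted p 0.0235) and lower in double than in HER2 mutants (-0.74, edgeR adjusted p 0.0483). Prom1 overlaps Gm42716 and the antisense gene Gm16401.

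Tnfsf11 (ENSMUSG00000022015, chromosome 14, 78277445 to 78308043, minus strand), which encodes RANKL, was barely detected. Its counts were 2, 7 and 6 in WT and 2, 0, 0 and 4 in PIK3CA mutants. They were 0, 2, 1 and 2 in HER2 mutants and 0, 0, 1, 0 and 2 in double mutants. Of the 16 libraries, 6 had no count, which allows a level of up to 3 counts, or 0.0477 to 0.0668 CPM by library. Only WT replicates 2 and 3 and PIK3CA replicate 4 had more than 3 counts. In a fit without the filter on low counts, the log2 fold change in double mutants against WT was -2.73, which did not pass (SE 1.29, edgeR adjusted p 0.285). A difference in Tnfsf11 between genotypes was not detectable at these counts.

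Scaled to the length of the annotated exons and averaged over the 16 samples of all genotypes, the mean level was highest for Gata3, at 102 CPM per kilobase, and its lowest sample (55.6) was above the highest of Foxa1 (24.1). Foxa1 followed at 11.5 and Prom1 at 7.29 CPM per kilobase, with ranges that overlapped. Pgr had 2.37, Esr1 1.65, Cited1 0.927 and Greb1 0.622 CPM per kilobase, again with overlapping ranges. Tnfsf11 was lowest, at 0.0151. This order differed within genotypes. In HER2 mutants Prom1, at 8.36 CPM per kilobase, had a higher mean than Foxa1, at 3.25. In WT the mean of Greb1 was 2.58 CPM per kilobase and that of Cited1 was 0.251. In WT alone, Greb1 (2.58 ± 1.18 CPM per kilobase, SD, n = 3) was level with Esr1 (2.58 ± 0.566 CPM per kilobase, SD, n = 3), whereas in double mutants Greb1 had 0.0940 ± 0.145 and Esr1 1.33 ± 0.420 CPM per kilobase (SD, n = 5).

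Within a genotype the genes did not share 1 order of samples, though some pairs varied together. For deviations from the genotype means, Pearson's r was 0.75 for Esr1 with Foxa1, 0.68 with Cited1 and 0.66 with Pgr. It was 0.60 for Pgr with Foxa1 and 0.59 for Foxa1 with Cited1, but 0.21 for Pgr with Cited1. Gata3 ran from -0.33 with Pgr to 0.14 with Foxa1. These values were not computed without single samples. Double mutant replicate 2 was the lowest of its genotype for 5 of the 7 tested genes, Esr1, Pgr, Foxa1, Greb1 and Cited1, yet was the highest for Prom1. Its immune sum, 68.4 CPM, was the highest of the double mutants, and its fibroblast sum, 26.2 CPM, the lowest. Of that immune sum, Cd68 alone made up 65.4 CPM. Ptprc, Adgre1 and Lyz2 were at most 0.105, 0.0554 and 0.337 CPM in any double mutant. Its pan-luminal sum was 6521 CPM, against 3113 to 3858 in the other double mutants, and its basal sum was 555 CPM, against 927 to 1021. The part of these differences in its levels of the 5 genes was not tested. In HER2 mutants the low samples differed by gene. Pgr was lowest in replicate 1, Foxa1 and Greb1 in replicate 3, Gata3 in replicate 2, and Esr1, Cited1 and Prom1 in replicate 4. WT replicate 2 was the highest of its genotype for 5 of the 7 genes and WT replicate 3 the lowest for 5.

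**Figure D4:**
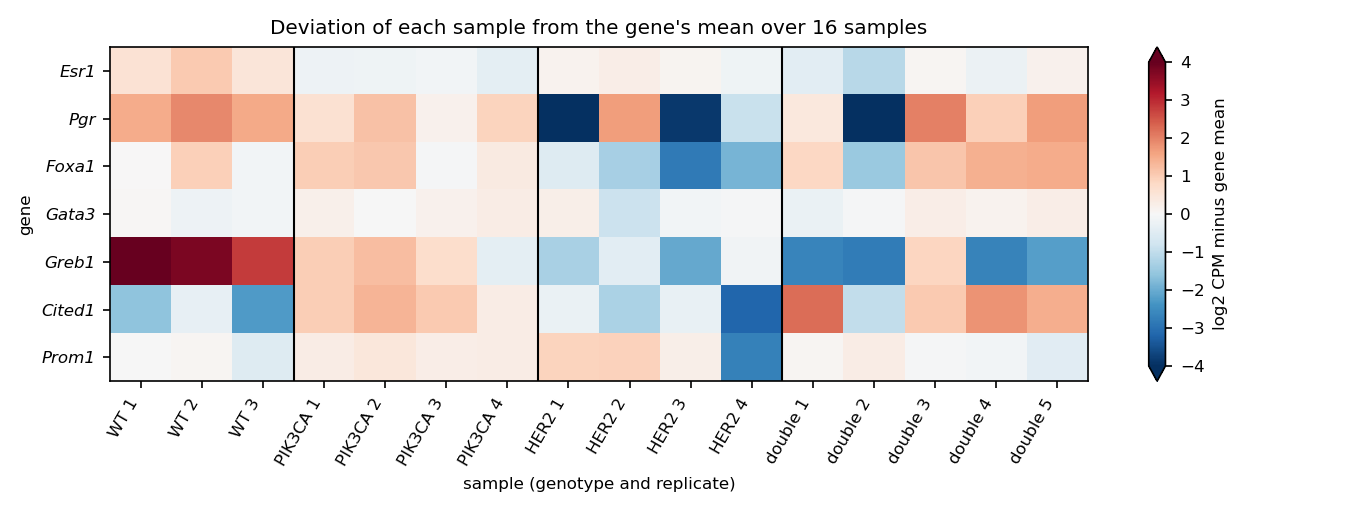
Log2 CPM of each tested gene minus its mean over the 16 samples, by sample (columns, grouped by genotype); the colour scale stops at 4 in either direction. Double mutant replicate 2 is the lowest of its genotype for 5 of the 7 genes, and Greb1 is highest in the 3 WT samples.

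The interaction asks whether the double mutant differs from the sum of both single-mutant changes on the log2 scale. None of the 7 genes passed, beside positive calls in 0.515% and negative calls in 0.544% of all genes. At an unadjusted p under 0.05 there were 2 genes, and DESeq2 called 0. Foxa1 had an estimate of 2.07 (SE 0.760, edgeR adjusted p 0.229) and Greb1 of 2.75 (SE 1.10, edgeR adjusted p 0.273). Without double mutant replicate 3 the Greb1 estimate was 1.08 (edgeR adjusted p 0.447). The Foxa1 estimate joins a change of -1.77 in HER2 mutants against WT with a change of 0.31 in double against PIK3CA mutants. The Greb1 estimate joins single-mutant changes of -2.97 and -4.55 with a double mutant change of -4.78. Both estimates use the WT samples, the only ones of normal source, so source and interaction cannot be told apart. Over the 7 genes the median interaction estimate was 0.61, beside 0.01 over all genes.

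Other receptors and luminal regulators formed a list of 14 genes, of which 13 were tested. Against WT, 1 was higher and 0 lower in PIK3CA mutants, 1 higher and 1 lower in HER2 mutants, and 2 higher and 1 lower in double mutants. Of all tested genes, 1.49% were higher and 3.03% lower in PIK3CA mutants, 4.75% and 5.63% in HER2 mutants, and 5.03% and 6.72% in double mutants. The list's median log2 fold changes were 0.08, -0.33 and 0.06, beside -0.03, 0.03 and 0.01 over all genes. Tfap2b, which encodes an AP-2 transcription factor, had a pattern across genotypes like that of Foxa1. Tfap2b had 20.7 to 65.7 CPM in WT, 55.6 to 101 in PIK3CA mutants, 4.92 to 16.6 in HER2 mutants and 13.2 to 104 in double mutants. Tfap2b was lower in HER2 than in PIK3CA mutants, by a log2 fold change of -3.18 (SE 0.622, edgeR adjusted p 0.0107), a call kept in all alternatives run for it. Its other calls, -2.42 in HER2 mutants against WT and 2.85 in double against HER2 mutants, were lost in fits of the compared genotypes alone. They were also lost in 4 of 7 and 3 of 9 fits without a sample, and the second under a block for the replicate number. Tfap2c, another AP-2 factor gene, was called higher in PIK3CA (0.81) and double mutants (0.67), each lost in 6 fits without a sample, of 7 and 8. Each was also lost under the replicate block. Ncoa1, a receptor coactivator gene, was lower in double mutants than in WT (-0.52, SE 0.110, edgeR adjusted p 0.00601) and missed the threshold in 1 of 8 such fits. Esr2, the second oestrogen receptor gene, had means of 0.218 to 0.341 CPM in the 4 genotypes and was called in none. Prlr, the prolactin receptor gene, had means of 88.6 to 128 CPM and was called in none.

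Genes known to respond to oestrogen or progesterone, a list of 14 with 12 tested, were called in both directions. Against WT, 1 was higher and 1 lower in PIK3CA mutants, 3 higher and 1 lower in HER2 mutants, and 2 higher and 1 lower in double mutants, to be read against the same shares of all genes. The median log2 fold changes were -0.13, -0.03 and 0.28. Cxcl12, a chemokine gene that stromal cells also express, had 78.8, 168 and 114 CPM in WT. It had 29.0 to 36.4 CPM in PIK3CA, 4.51 to 18.2 in HER2 and 7.53 to 23.4 in double mutants, all below WT. The log2 fold change of Cxcl12 was -1.88 (SE 0.432, edgeR adjusted p 0.0187), -3.78 (SE 0.459, edgeR adjusted p 0.000375) and -3.12 (SE 0.413, edgeR adjusted p 0.000321) in that order. The call in PIK3CA mutants was lost in 5 of 7 fits without a sample and under the replicate block. The calls in HER2 and double mutants were lost in no alternative. WT replicate 2 had the highest Cxcl12 level and the highest fibroblast sum, and the part of fibroblasts in the difference was not tested. Areg, which encodes the epidermal growth factor receptor ligand amphiregulin and is a direct oestrogen receptor target in the gland, went the other way. Areg had 1.28 to 1.63 CPM in WT, 0.864 to 2.75 in PIK3CA mutants, 3.21 to 10.9 in HER2 mutants and 6.38 to 15.9 in double mutants. Its log2 fold change from WT was 2.24 with the HER2 mutation alone (SE 0.446, edgeR adjusted p 0.00613) and 2.94 with both (SE 0.451, edgeR adjusted p 0.000693), and neither call was lost in any alternative. Areg was also higher in double than in PIK3CA mutants (2.38, SE 0.389, edgeR adjusted p 0.0148), lost in 3 of 9 fits without a sample and under the replicate block. Ccnd1, the cyclin D1 gene, was called higher in PIK3CA (1.71), HER2 (1.64) and double mutants (2.40), and only the last call was never lost. Fkbp5, a progesterone and glucocorticoid response gene named here after its value was seen, was the third gene higher in HER2 mutants (1.15, SE 0.301, edgeR adjusted p 0.0258).

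Between mutants, the receptor and regulator list had 1 gene higher in double than in HER2 and 1 lower in HER2 than in PIK3CA mutants, Tfap2b each time, and 0 between double and PIK3CA mutants. The hormone target list had 0 calls in double against HER2, 1 higher in double against PIK3CA, and 1 higher and 1 lower in HER2 against PIK3CA mutants. Of all tested genes, 1.03% were higher and 1.47% lower in double against HER2, 0.309% and 0.363% in double against PIK3CA, and 2.21% and 2.20% in HER2 against PIK3CA mutants. The 2 target genes called in HER2 against PIK3CA mutants were Areg (1.69, SE 0.392, edgeR adjusted p 0.0244) and Cxcl12 (-1.90, SE 0.415, edgeR adjusted p 0.0185). The Areg call was lost in 4 of 8 fits without a sample, under the replicate block and in a fit of these genotypes alone, and the Cxcl12 call in the last of these. Cxcl12 had the single interaction call of these lists (2.54, SE 0.581, edgeR adjusted p 0.0487), lost in 14 of 16 fits without a sample. That call was also lost under median-of-ratios scaling, upper-quartile scaling and the replicate block. All 7 genes of the list downstream of RANKL were tested, and 0 were called against WT in PIK3CA or HER2 mutants. In double mutants Traf6, an adaptor of the RANK receptor, was called lower (-0.54, SE 0.163, edgeR adjusted p 0.0396), and in HER2 against PIK3CA mutants Id2, a differentiation regulator, was called lower (-0.70, SE 0.182, edgeR adjusted p 0.0407). Both were lost in 7 of 8 fits without a sample and in fits of the compared genotypes alone. The Traf6 call was also lost under the replicate block and without the low-count filter. The receptor gene Tnfrsf11a had 62.4 to 80.7 CPM as genotype means, and that of its decoy receptor, Tnfrsf11b, 1.85 to 4.05 CPM, with no call in either.

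Genes whose log2 CPM followed each gene most closely over the 16 samples were taken from 11693 expressed genes. The measure was Pearson's r, given as a description of samples that share their genotypes. For Foxa1 these were Ttc6 (0.95), Ptn (0.94) and Il33 (0.92). Ttc6 lies 17196 bases from Foxa1 on chromosome 12, on the opposite strand. For Pgr they were F5 (0.94), Frem2 (0.92) and Kalrn (0.91), and for Greb1 they were Reck (0.92), Adamts17 (0.91) and Gna14 (0.91). For Cited1 they were Ppp3ca (0.89), Emb (0.88) and Aldh1l1 (0.87), and for Esr1 they were Zfyve27 (0.89), Ntng2 (0.87) and Hip1 (0.87). Prom1 was followed most closely by Slc22a21 (0.88), B4galt1 (0.87) and Tmem234 (0.87), and Gata3 by Tulp3 (0.85), Cxxc5 (0.83) and Rnf43 (0.83).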

How the data were processed

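RNA sequencing was analysed in 16 organoid samples, grouped by the genotype in their labels. The authors deposited whole-number read counts per Ensembl gene, without normalization. Per the labels' protocols, total RNA went into a SMARTer mRNA library kit. The submitters' processing notes name STAR 2.0.4b, featureCounts 1.4.5, DESeq2 1.33.5 and mm10, with no settings, and strandedness was not given in the sources used here. The table held 55774 rows, of which 287 repeated an identifier and were dropped. The authors' normalized table was not used here.

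Genes were kept with filterByExpr (24252 genes) and scaled with TMM factors. The quasi-likelihood test of edgeR 4.0.16 (R 4.3.3, two-sided) was fitted to the 16 samples with no factor but genotype, and p was adjusted by Benjamini-Hochberg over every tested gene. The SE is the absolute log2 fold change divided by the square root of F. CPM used TMM-scaled library sizes, and log2 CPM a prior count of 2. No batch is named in the labels. The fitting was tested on simulated data. Alternatives were DESeq2 1.42.0, median-of-ratios and upper-quartile scaling, no filter, the replicate number as a block, the compared genotypes alone, and leaving out each sample.

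The 8 genes, the other lists and their naming rule were chosen with earlier results of these data known. Named genes of the pathway lists were up to 3 called genes per list and comparison with the largest absolute log2 fold change. The same alternatives were run for them after seeing the data. Esr2, Prlr, Tnfrsf11a, Tnfrsf11b and Fkbp5 were named outside this rule and without these alternatives. Some genes of these lists are counted but not reported here by name. Likeness was computed among kept genes with a mean log2 CPM of at least 1. Positions and exon lengths come from GENCODE M21 (GRCm38). Levels of 3 counts corresponded to 0.0477 to 0.0668 CPM, and such floors cover counting error only.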

Additional observations from a re-analysis of the deposited data

Results flagged for a closer look

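The gap of the highest or lowest sample to its neighbour, as a share of the range within a genotype, was compared with Dixon's 95% critical value in 24 groups of 4 or 5 samples. Chance marks about 5% of such groups, and 3 exceeded the value. Greb1 had 3.38 CPM in double mutant replicate 3, against 0.231 to 0.369 CPM in the other 4 (a gap of 0.956 of the range). Pgr had 33.8 CPM in HER2 mutant replicate 2, against 0.396 to 5.73 CPM in the other 3 (0.840 of the range). Prom1 had 63.9 CPM in PIK3CA mutant replicate 2, against 56.8 to 57.8 CPM in the other 3 (0.861 of the range), a narrow range in which the highest was 1.12 times the lowest.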

How the results depend on the processing

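Of the 49 log2 fold changes of the 7 tested genes, 49 kept their direction and their side of the threshold under median-of-ratios and 49 under upper-quartile scaling. Greb1 in HER2 and in double mutants against WT were the 2 of 7 calls that no alternative ended. The number of genes called in PIK3CA mutants against WT was 1, and became 3 with DESeq2, 2 without the low-count filter, 4 in a fit of these genotypes alone and 0 to 0 when any sample was left out. In HER2 mutants against WT it was 1, and became 2 with DESeq2, 2 without the filter and 1 to 2 without a sample. In double against HER2 mutants it was 1, and became 2 with DESeq2, 2 without the filter, 0 in a fit of these genotypes alone and 0 to 2 without a sample. In HER2 against PIK3CA mutants it was 1, and became 2 with DESeq2, 0 in a fit of these genotypes alone and 0 to 1 without a sample. In double against PIK3CA mutants it was 0, and 0 to 1 without a sample. The causes were not tested.

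Same-numbered samples of different genotypes had a mean correlation of deviations of 0.0122 over 21 pairs (-0.163 to 0.273). Between HER2 and double mutants all 4 pairs were positive (mean 0.157, 0.0711 to 0.273, against -0.0407 for other numbers). Deviations within a genotype sum to 0, so a positive mean for same numbers lowers the mean for other numbers. These values cannot settle whether the numbers are pairs, and the main fit did not take them as pairs. Under a replicate block, the number called became 0 in PIK3CA mutants against WT, 0 in double against HER2 and 0 in HER2 against PIK3CA mutants, the Foxa1 call in double against HER2 mutants was lost (2.38, edgeR adjusted p 0.114), and the Cited1 call in double mutants against WT was lost (2.86, edgeR adjusted p 0.0744). Own-numbered samples gave the highest correlation in 9 of 42 cases, 4 of 8 between HER2 and double mutants, and the cause of the lost calls was not tested.

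Direction turned in 9 values, none of them called. Without a sample, these ran from -0.21 to 0.12 for Gata3 and -0.0532 to 1.12 for Cited1 in HER2 mutants against WT, -0.0599 to 0.22 for Prom1 in double mutants against WT, and -1.90 to 0.0868 for Greb1 in double against HER2 mutants. They ran from -0.15 to 0.14 for Esr1 and -0.0618 to 0.63 for Pgr in double against PIK3CA mutants, and -0.23 to 0.40 for Prom1 in HER2 against PIK3CA mutants (-0.22 with the replicate block). For the interaction they ran from -0.20 to 0.13 for Gata3 and -0.65 to 0.52 for Cited1.

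Over all genes, the count called in PIK3CA mutants against WT was 1096, with 1778 by DESeq2, 4136 in these genotypes alone and 396 to 1043 without a sample. In HER2 mutants against WT it was 2518, with 1625 under the replicate block, 541 in these genotypes alone and 733 to 2693 without a sample. In double mutants against WT it was 2850, and 1173 to 2961 without a sample. In double against HER2 mutants it was 606, with 1652 by DESeq2, 118 under the block, 37 in these genotypes alone and 256 to 975 without a sample. In double against PIK3CA mutants it was 163, with 613 by DESeq2, 19 under the block, 364 in these genotypes alone and 17 to 143 without a sample. In HER2 against PIK3CA mutants it was 1069, with 2110, 552, 534 and 427 to 1166 in that order. For the interaction it was 257, with 945 by DESeq2, 35 under the block and 54 to 382 without a sample. Tnfsf11 had at most 7 counts in any library and was removed by the low-count filter.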
